A study of Sus scrofa with 12 samples.

Results

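Replacement histone variants were described in RNA of testis and epididymis from boars of the inbred Banna mini-pig (BMI), a small pig. Of 9 variant and linker histone genes looked for by exact symbol (H3-3A, H3-3B, H2AZ1, H2AZ2, MACROH2A1, MACROH2A2, H1-10, H2AX and CENPA), 5 had a row of that name among 30640 gene rows: H2AZ2, MACROH2A1, MACROH2A2, H2AX and CENPA. Another 2 stood under older symbols, H2AZ1 as H2AFZ and H3-3A as H3F3A, and are given beside the 5 under those names. H3-3B and H1-10 had no row of that name and were not analysed here. Per the labels, the animals were untreated adults, with 5 short-read RNA libraries of testis and 5 of epididymis and no other group. The file headers carry the same 5 animal numbers in both tissues, so each replicate number stands for 1 boar. The stated age is 12 months in the labels, but 12, 12, 11, 17 and 11 months (replicates 1 to 5) in the headers. Another 2 samples, long-read libraries of pooled tissue, were not analysed here.

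A nucleosome wraps DNA around pairs of the core histones H2A, H2B, H3 and H4. The bulk of them is made during DNA replication from clustered genes whose mRNAs end in a stem-loop and lack a poly(A) tail. Replacement variants are made outside replication as well, mostly from polyadenylated mRNAs, and are put into chromatin by their own chaperones. In the testis, germ cells pass through meiosis and then exchange most histones for transition proteins and protamines. The epididymis, the duct where sperm mature, holds non-dividing epithelium and smooth muscle.

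The labels' protocols name oligo(dT), which binds poly(A) tails, for all short-read libraries. Libraries held 18715154 to 30211957 counted reads in testis and 17980578 to 21937263 in epididymis. Levels are in CPM, the reads of a gene scaled to a common library total. Markers fitted the labels of both tissues: 11 germ cell genes summed to 14245 to 16345 CPM in testis and 34.9 to 462 CPM in epididymis, and 10 genes of the epididymal epithelium to 55.6 to 139 and 15189 to 29421 CPM, with CRISP1 at 0 reads in testis. Testis replicate 4 stood apart. Small structural RNAs took 71.3 CPM there, against 15044 to 16186 CPM in testis replicates 1, 2, 3 and 5, with 72.9 to 134 CPM in epididymis. Rows of replication-dependent histones summed to 77.7 CPM in testis replicate 4, against 2177 to 3106 CPM in the other testis libraries, with 65.5 to 321 CPM in epididymis. Mitochondrial rows took 16159 CPM, against 5238 to 8323 CPM in the other testis libraries. Testis replicates 1, 2, 3 and 5 thus held far more small structural RNA and replication-dependent histone mRNA than any other library. Most RNAs of these classes lack a poly(A) tail. Mitochondrial rows ran the other way, with 17840 to 64534 CPM in epididymis. Whether all libraries were prepared alike was not tested. The part this has in the testis-over-epididymis values of any gene given here, H2AX and H2AC1 included, was not tested either. Germ cell markers of testis replicate 4 were not uniformly shifted. Their sum was 16345 CPM there and 14245 to 15719 CPM in the other testis libraries, but 4 of 11 markers lay below each of those and 6 above. STAG3 had 464 CPM, against 911 to 1061 CPM, and OAZ3 923, against 2012 to 2365 CPM, while TNP1 had 2396, against 629 to 766 CPM, and PRM2 1464, against 229 to 296 CPM. The sums of Sertoli (427, against 460 to 503 CPM), Leydig (12144, against 12632 to 19341 CPM) and endothelial markers (229, against 304 to 452 CPM) were lower in testis replicate 4, and those of epididymal epithelium (139, against 55.6 to 80.1 CPM) and macrophages (79.1, against 46.1 to 67.5 CPM) higher. NPC2 made up most of the epididymal epithelium sum there (127 CPM, against 46.2 to 72.8 CPM). Of the 10 epididymal markers, 4 lay above the other testis libraries, 1 below and 5 within their range. Single markers of the other cell types were mixed too. Of 8 Sertoli markers, 5 lay below the other testis libraries and 3 above. Of 5 Leydig markers, 2 lay below, 1 above and 2 within. Of 6 endothelial markers, 3 lay below, 2 above and 1 within. Of 7 macrophage markers, 5 lay above, 1 below and 1 within. Epididymis replicate 3 also stood apart: over all genes, chi-square per degree of freedom was 340 to 437 in its pairs with the other epididymis libraries, against 72.5 to 228 among those, and it held the highest germ cell sum of epididymis (462 CPM).

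Between the tissues, 4 of the 5 variants were called different by edgeR's quasi-likelihood test at an adjusted p of 0.05, 1 higher in testis (H2AX) and 3 lower (H2AZ2, MACROH2A1 and MACROH2A2). CENPA was not called. Of all 17225 genes tested, 74.4% were called (36.6% towards testis, 37.8% towards epididymis), so a count of 4 of 5 is close to the background. All 5 variants passed the filter on low counts. Both rows under older symbols were called too, H2AFZ higher and H3F3A lower in testis. The testis libraries did not overlap the epididymis libraries for 1 of the 5 variants, MACROH2A1, and for H3F3A, against 61.4% of all genes tested. In bulk tissue, fewer cells of a type and less RNA per cell cannot be told apart.

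**Figure D1:**
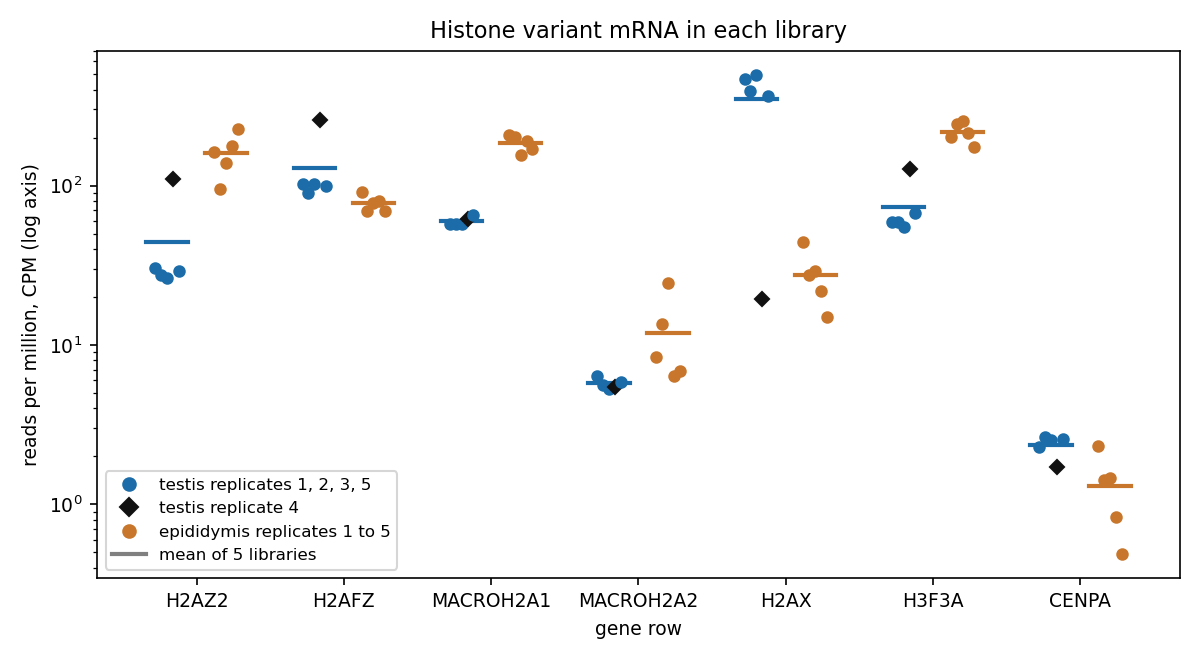
CPM (log axis) of the 5 variants and the rows H2AFZ and H3F3A in each library, with testis left of epididymis, testis replicate 4 as a black diamond and the mean of each tissue as a line. Testis replicate 4 sits at 19.4 CPM for H2AX, far below the 366 to 496 CPM of the other testis libraries, and above them for H2AZ2, H2AFZ and H3F3A.

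H2A.Z replaces H2A near promoters and is encoded by a pair of genes, H2AZ1 and H2AZ2, whose proteins are nearly identical. H2AZ2 had 30.3, 27.3, 26.2, 109.9 and 28.9 CPM in testis replicates 1 to 5, against 163, 95.8, 138, 176 and 226 CPM in epididymis replicates 1 to 5. Replicates 1, 2, 3 and 5 of testis lay far below every epididymis library, while testis replicate 4 lay above epididymis replicate 2 and below the rest. The mean was 44.5 ± 36.6 CPM in testis and 159.6 ± 48.0 CPM in epididymis (SD, n = 5 each). The log2 fold change, testis over epididymis, was -1.84 ± 0.42 (SE), with an edgeR adjusted p of 0.00178, and in 5 of 5 boars testis was lower. Without testis replicate 4 it was -2.47 (edgeR adjusted p = 8.2e-06), in a fit that called 76.1% of all genes tested. From testis replicate 4 alone against the epididymis it was -0.44 and not called (edgeR adjusted p = 0.507), where 34.7% of 18896 genes tested were called, 23.4% towards testis and 11.4% towards epididymis.

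H2AFZ, the row of H2AZ1 (chromosome 8, 120563752 to 120566023, Sscrofa11.1), ran the other way. It had 102, 90.2, 102, 256 and 99.0 CPM in testis replicates 1 to 5, against 91.3, 69.2, 77.4, 79.6 and 69.1 CPM in epididymis replicates 1 to 5. Testis was higher in 5 of 5 boars, and the lowest testis library (90.2 CPM) overlapped the highest epididymis library (91.3 CPM). The log2 fold change was 0.75 ± 0.28 (SE, edgeR adjusted p = 0.0262). Without testis replicate 4 it was 0.37 (edgeR adjusted p = 0.0211), and from that library alone 1.83 (edgeR adjusted p = 0.0025). The call was lost with the boar as a block (log2 0.64, edgeR adjusted p = 0.052), where 71.8% of all genes tested were called, and without epididymis replicate 2, 4 or 5, where the log2 fold change was 0.71 to 0.75 (edgeR adjusted p = 0.0553 to 0.0581).

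The balance between the H2A.Z genes was taken as a ratio of reads, a measure that does not depend on the library total. Since the genes ran in opposite directions, the ratio must differ more than either gene alone, which is no separate result. H2AFZ had 3.35, 3.3, 3.9, 2.33 and 3.42 reads per read of H2AZ2 in testis replicates 1 to 5, against 0.561, 0.722, 0.563, 0.452 and 0.306 in epididymis replicates 1 to 5. Thus H2AFZ gave more reads than H2AZ2 in every testis library, replicate 4 included, and fewer in every epididymis library. The log2 ratio averaged 1.68 ± 0.28 in the 5 testis libraries and -1.0 ± 0.46 in the 5 epididymis libraries (SD), which is 6.41-fold. In an exact two-sided permutation test, p was 0.007937, the smallest that 5 against 5 libraries can give (0.01587 adjusted over the 2 ratios tested). With tissues exchanged within each boar, the exact permutation p was 0.0625, also the smallest possible and not a call. A ratio of reads is not one of molecules, because the counted model of H2AFZ is 943 bases long and that of H2AZ2 7205 bases. Per kilobase of model, H2AFZ was the higher of the pair in both tissues, at 138 ± 74.9 against 6.18 ± 5.08 RPKM (CPM per kilobase) in testis and 82.0 ± 9.70 against 22.2 ± 6.66 RPKM in epididymis. A model longer than the mRNA in use lowers such a value. The mRNA lengths in use were not measured, so the order per kilobase is uncertain, above all in epididymis, where H2AZ2 gave more reads.

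**Figure D2:**
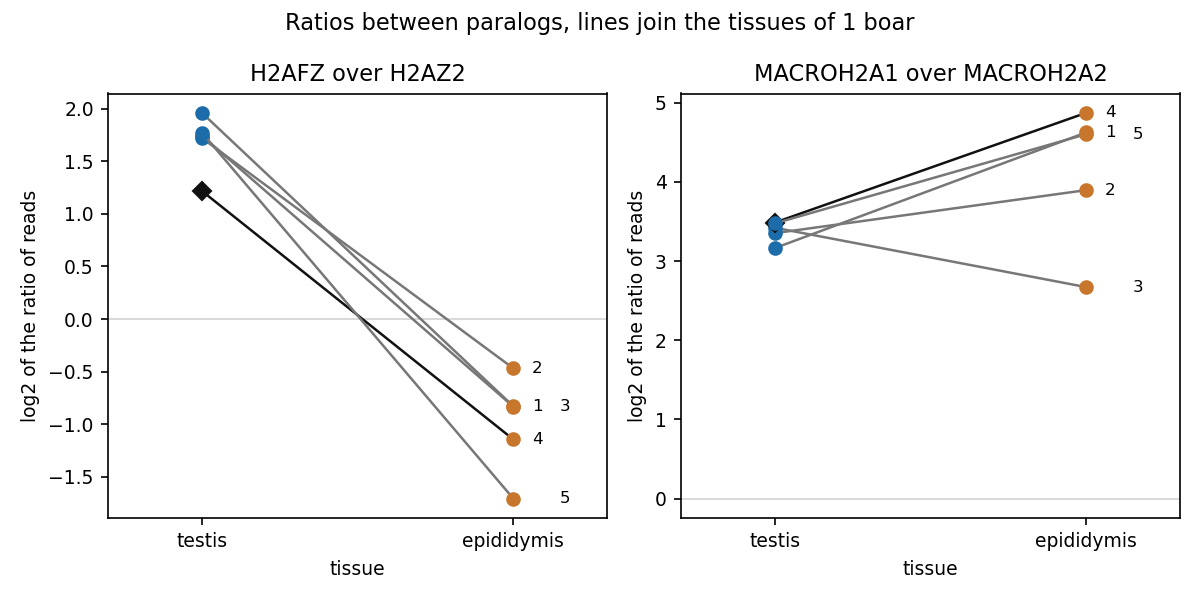
Log2 ratio of the reads of H2AFZ over H2AZ2 (left) and of MACROH2A1 over MACROH2A2 (right) in testis and epididymis, with a line and number per boar and testis replicate 4 as a black diamond. The H2A.Z ratio is above 0 in all 5 testis libraries and below 0 in all 5 epididymis libraries, while the macroH2A ratio falls below its testis value in boar 3 and lies above it in boars 1, 2, 4 and 5.

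MacroH2A variants carry a large macro domain behind the histone fold and are known for marking repressed chromatin, such as the inactive X chromosome. MACROH2A1 (chromosome 2, 137535128 to 137623886, under the older symbol H2AFY in RefSeq) had the smallest standard error of the 5 variants. It had 57.8, 57.8, 57.4, 61.6 and 65.7 CPM in testis replicates 1 to 5, against 207, 203, 155, 189 and 169 CPM in epididymis replicates 1 to 5. All testis libraries, replicate 4 among them, lay below all epididymis libraries, and epididymis had 3.07 times the testis mean. The log2 fold change was -1.60 ± 0.15 (SE, edgeR adjusted p = 1.8e-06), between -1.69 and -1.53 when single libraries were left out, and -1.48 from testis replicate 4 alone (edgeR adjusted p = 0.0179).

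MACROH2A2, its paralog, gave fewer reads in every library. It had 6.40, 5.63, 5.32, 5.45 and 5.87 CPM in testis replicates 1 to 5, against 8.35, 13.6, 24.3, 6.40 and 6.90 CPM in epididymis replicates 1 to 5. The testis libraries lay close together, and epididymis replicates 4 and 5 lay little above them or at their level. The log2 fold change was -1.03 ± 0.36 (SE, edgeR adjusted p = 0.0205), with testis lower in 5 of 5 boars. Without epididymis replicate 3, the library that stands apart in that tissue, it was -0.64 (edgeR adjusted p = 0.048). The call was lost with the boar as a block (log2 -0.84, edgeR adjusted p = 0.0573), without testis replicate 3 (log2 -0.94, edgeR adjusted p = 0.0533) and from testis replicate 4 alone (log2 -1.01, edgeR adjusted p = 0.369).

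The 2 macroH2A genes kept no fixed balance in epididymis. MACROH2A1 had 8.96 to 11.2 reads per read of MACROH2A2 in testis, against 6.37 to 29.3 in epididymis. The log2 ratio averaged 3.38 ± 0.13 over testis and 4.13 ± 0.90 over epididymis (SD, 5 libraries each), and the difference of -0.75 had an exact two-sided permutation p of 0.119 (0.119 adjusted over the 2 ratios). Epididymis replicate 3 had the only epididymis ratio below the testis ratios. Without it the difference was -1.12 (exact permutation p adjusted over the 2 ratios = 0.01587), and without epididymis replicates 3 and 4 together -1.0 (exact permutation, adjusted p = 0.03571). With replicate 3 left out, all remaining epididymis ratios lay above all testis ratios. Both p-values are then the smallest that these tests can give, so they reflect which libraries were left out.

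H2AX is the H2A variant that is phosphorylated in the chromatin around DNA breaks and, in male meiosis, over the silenced sex chromosomes. Its mRNA is known in a short stem-loop form without a poly(A) tail and in a longer polyadenylated form. H2AX had 468, 391, 496, 19.4 and 366 CPM in testis replicates 1 to 5, against 44.0, 27.4, 28.9, 21.8 and 15.0 CPM in epididymis replicates 1 to 5. Testis replicates 1, 2, 3 and 5 lay far above every epididymis library, with 15.7 times the epididymis mean, whereas testis replicate 4 lay among the epididymis libraries, below 4 of the 5. Over all libraries the mean was 348 ± 191 CPM in testis and 27.4 ± 10.7 CPM in epididymis (SD, n = 5 each), and the log2 fold change was 3.69 ± 0.67 (SE, edgeR adjusted p = 0.000346). Without testis replicate 4 it was 4.0 (edgeR adjusted p = 1.72e-06). From testis replicate 4 alone the direction turned (log2 -0.39) and no call was made (edgeR adjusted p = 0.614).

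The low level of H2AX in testis replicate 4 rested on 364 reads, against 8908 to 11801 in the other testis libraries. On the log2 scale H2AX lay 4.45 below their mean, and 0.244% of the 17225 genes tested lay farther from it in either direction. That share covers only genes that passed the filter on low counts. The filter can drop genes found in testis replicates 1, 2, 3 and 5 alone, so the share may be too low. Of 16 rows of replication-dependent histones, 12 passed. Of 12 tested rows of replication-dependent histones, 11 were lower in testis replicate 4 than in each other testis library, with a median log2 difference of -6.42, and 8 of the 12 lay further below than H2AX. Among these rows, H2AC1 had 0.801 CPM in that library, against 1219 to 1876 CPM in testis replicates 1, 2, 3 and 5, and the linker histone row H1-4 0.0534 and 174 to 257 CPM. H2BC21 had 46.6 and 63.6 to 81.5 CPM, and HIST1H2BD 2.08 and 1.25 to 2.15 CPM. H2AX had 0.25 reads per read of the replication-dependent rows in testis replicate 4, against 0.16 to 0.192 in the other testis libraries and 0.0503 to 0.419 in epididymis. The part that these RNA classes had in the H2AX difference was not tested, and library and age cannot be told apart here, since that boar is the oldest by the headers. Its epididymis library (replicate 4, 21.8 CPM) lay within the range of its tissue. The counted H2AX model is 432 bases long, a whole number of codons (144), and its coding sequence resembles that of other H2A genes, so reads may have been split between rows.

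**Figure D3:**
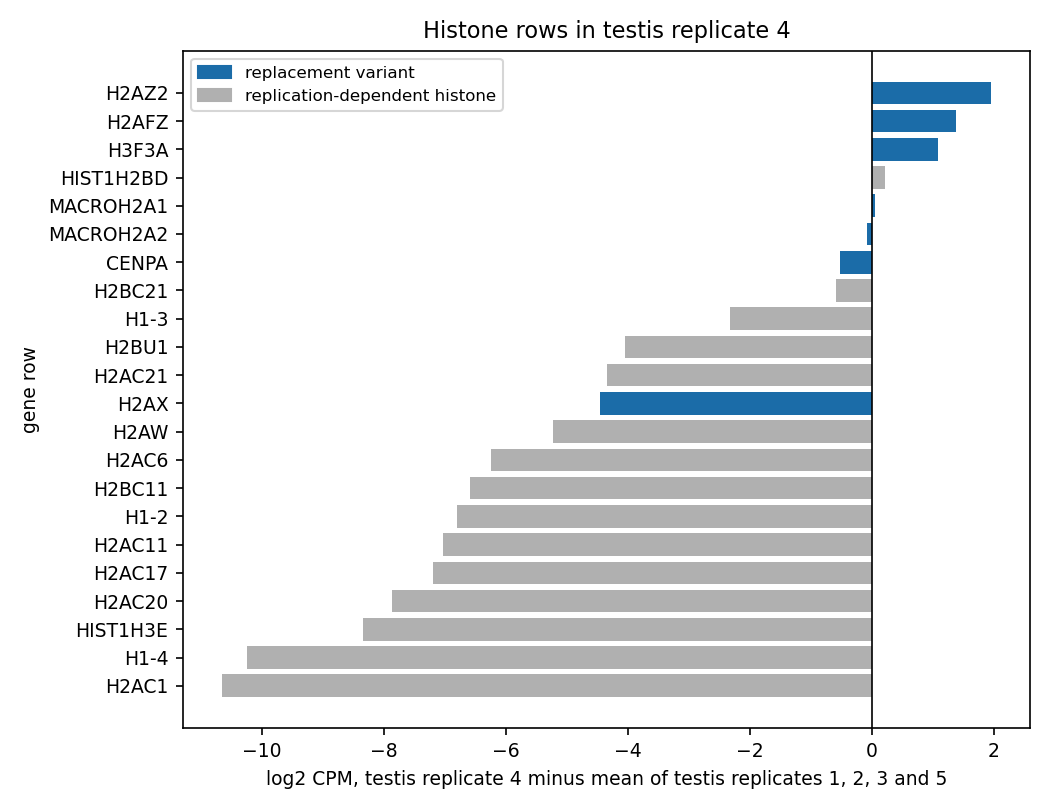
Log2 CPM in testis replicate 4 minus the mean of testis replicates 1, 2, 3 and 5 for the 7 replacement variant rows (blue) and 15 replication-dependent histone rows with at least 1 CPM in each of those 4 libraries (grey). H2AX, at -4.45, stands among the replication-dependent rows, while H2AZ2, at 1.96, H2AFZ and H3F3A are above 0 and both macroH2A genes are near 0.

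The other variants were not as low in testis replicate 4. In log2 CPM, H2AZ2 lay 1.96 above the mean of the other testis libraries, H2AFZ 1.38 and H3F3A 1.09 above, MACROH2A1 0.05 above, MACROH2A2 differed by -0.08 and CENPA by -0.52. Of all genes tested, 2.79% lay farther from the other testis libraries than H2AZ2, 9.12% farther than H2AFZ and 16.4% farther than H3F3A, and 19.9% lay at least 1 log2 unit away.

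H3.3 replaces H3 in transcribed genes and at telomeres outside replication, and is made from a pair of genes with the same protein. H3F3A, the row of H3-3A (chromosome 10, 13939938 to 13947976), had 58.9, 58.9, 54.7, 127 and 66.9 CPM in testis replicates 1 to 5, against 202, 243, 255, 215 and 175 CPM in epididymis replicates 1 to 5. All testis libraries lay below all epididymis libraries, with replicate 4 as the highest of testis. The log2 fold change was -1.56 ± 0.24 (SE, edgeR adjusted p = 9.0e-05). From testis replicate 4 alone it was -0.67 and not called (edgeR adjusted p = 0.141). Copies of H3.3 genes are common in mammalian genomes, and how reads that map to several places were counted is not given in the sources used here, so the level of this row is uncertain.

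CENPA, the H3 variant that marks centromeres, was the rarest. On chromosome 3 (112263912 to 112272638), it had 2.31, 2.65, 2.55, 1.71 and 2.59 CPM in testis replicates 1 to 5, against 2.34, 1.42, 1.46, 0.834 and 0.49 CPM in epididymis replicates 1 to 5. These values rest on 32 to 80 reads in testis and 10 to 46 in epididymis. The lowest, in epididymis replicate 5, has a 95% Poisson interval of 0.235 to 0.9 CPM, which covers counting error only. Epididymis replicate 1 lay within the testis range and the other epididymis libraries below it. The log2 fold change was 0.87 ± 0.40 (SE) and was not called (edgeR adjusted p = 0.065). It was called with DESeq2 (log2 0.99, adjusted p = 0.0215), with the size factors of DESeq2 in edgeR (log2 0.98, edgeR adjusted p = 0.0408) and without epididymis replicate 1 (log2 1.21, edgeR adjusted p = 0.0127).

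Levels between genes were compared per kilobase of the counted model, in RPKM. In testis the order was H2AX (805 ± 443), H2AFZ (138 ± 74.9), H3F3A (122 ± 50.6), H2AZ2 (6.18 ± 5.08), MACROH2A1 (4.46 ± 0.27), MACROH2A2 (2.98 ± 0.22) and CENPA (1.08 ± 0.18; SD, n = 5 each). H2AFZ and H3F3A did not differ beyond their spread. The place of H2AZ2 above MACROH2A1 rests on testis replicate 4 (15.3 RPKM, against 4.57 RPKM), since in replicates 1, 2, 3 and 5 H2AZ2 (3.64 to 4.2 RPKM) lay below MACROH2A1 (4.26 to 4.88 RPKM). H2AX stood above H2AFZ in replicates 1, 2, 3 and 5 (847 to 1147 RPKM, against 95.6 to 108 RPKM) but not in replicate 4 (45.0 RPKM, against 271 RPKM). In epididymis H3F3A led with 362 ± 52.8 RPKM, followed by H2AFZ (82.0 ± 9.70), H2AX (63.5 ± 24.9), H2AZ2 (22.2 ± 6.66), MACROH2A1 (13.7 ± 1.65), MACROH2A2 (6.20 ± 3.91) and CENPA (0.599 ± 0.323). Libraries of H2AFZ and H2AX overlapped there, as did those of H2AZ2 and MACROH2A1, and of MACROH2A1 and MACROH2A2. The model of MACROH2A1 is 13480 bases long and that of MACROH2A2 1922 bases, and a model longer than the mRNA in use lowers such a value. That of H2AZ2 is 7205 bases long, and that of H2AX 432 bases, a whole number of codons (144). Models this unlike limit every comparison of levels between genes given here.

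Of 24 other histone variants and testis linker histones sought by name, 5 had a row and 4 were tested, with 2 higher and 2 lower in testis. For this list and those that follow, the share over all genes tested was 36.6% called towards testis and 37.8% towards epididymis. H1-7, the linker histone of elongating spermatids, averaged 272 ± 36.1 CPM in testis against 1.34 ± 1.48 CPM in epididymis (SD, 5 libraries each), with 331 CPM in testis replicate 4. Its log2 fold change was 7.68 ± 0.62 (SE, edgeR adjusted p = 5.9e-07). H2AC1, the testis H2A that replaces the somatic form in germ cells, had 1191 ± 707 CPM in testis and at most 0.182 CPM in epididymis, and is among the rows near 0 in testis replicate 4 described above. From that library alone it was not called (edgeR adjusted p = 0.071). H2AJ, an H2A variant of epithelial cells, was 4.82 lower in testis on the log2 scale, with 7.70 ± 1.47 against 217 ± 74.7 CPM.

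Of 11 H3.3 chaperones and remodelers tested, 5 were higher in testis and 5 lower (median log2 fold change -0.58, against -0.07 over all genes tested). CABIN1, of the HIRA complex, had 521 ± 120 CPM in testis and 126 ± 8.76 CPM in epididymis, and DAXX, which loads H3.3 at heterochromatin, 255 ± 14.7 and 67.6 ± 21.8 CPM. ASF1B, the ASF1 chaperone of dividing cells, was higher by a log2 of 4.46 ± 0.41 (edgeR adjusted p = 1.7e-06), with 76.4 ± 21.6 against 3.51 ± 1.81 CPM. DEK, a chromatin protein that binds H3.3, was lower, with 7.89 ± 4.13 against 63.8 ± 14.8 CPM. HIRA itself, the H3.3 chaperone of active genes, was lower as well, with 40.8 ± 3.46 against 75.3 ± 13.9 CPM.

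Of 13 genes of the H2A.Z exchange complexes tested, 7 were higher in testis and 1 lower (median log2 0.75). The ATPases RUVBL1 and RUVBL2, shared by the SRCAP, TIP60 and INO80 complexes, had 286 ± 14.9 against 44.9 ± 4.21 CPM and 334 ± 40.6 against 73.3 ± 16.5 CPM. TRRAP, the scaffold of TIP60, had 394 ± 92.5 against 156 ± 26.0 CPM, but was not called from testis replicate 4 alone (edgeR adjusted p = 0.132). ACTR6, a subunit of the SRCAP complex, was lower, with 4.60 ± 1.98 against 10.1 ± 0.70 CPM, and lost its call likewise (edgeR adjusted p = 0.634).

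Of 10 general histone chaperones tested, 3 were higher in testis and 5 lower (median log2 -0.37), where 36.6% and 37.8% of all genes tested were called in these directions. CHAF1A, the large subunit of the replication-coupled assembly factor CAF-1, had 101 ± 7.68 CPM in testis and 17.5 ± 2.66 CPM in epididymis. NAP1L4 had 262 ± 43.9 and 139 ± 15.8 CPM. Its relative NAP1L1 was lower, with 43.6 ± 8.02 and 202 ± 59.1 CPM, as was SSRP1 of the FACT complex, with 178 ± 9.94 and 284 ± 42.9 CPM. From testis replicate 4 alone the log2 fold change was -1.72 for NAP1L1, against -2.20 over all libraries. For SSRP1 it was -0.50, against -0.66.

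Of 13 genes of the H2AX kinases and damage response tested, 6 were higher in testis and 4 lower (median log2 0.31). MDC1, which binds phosphorylated H2AX, had 344 ± 95.1 CPM in testis and 76.0 ± 14.8 CPM in epididymis, with 177 CPM in testis replicate 4. HORMAD2, a protein of unsynapsed meiotic chromosomes, had 31.0 ± 5.32 and 0.0775 ± 0.0735 CPM. Of the kinases that phosphorylate H2AX, ATM was lower, with 21.9 ± 4.76 against 38.1 ± 12.7 CPM, and ATR (25 ± 2.77 against 25.9 ± 4.26 CPM) and PRKDC (52.8 ± 12.3 against 50.8 ± 10.4 CPM) were not called. RAD50, of the break-sensing MRN complex, was lower by a log2 of 3.33 ± 0.38, with 13.5 ± 2.94 against 138 ± 86.3 CPM (edgeR adjusted p = 8.9e-06), and its row was named through its Ensembl identifier. From testis replicate 4 alone its log2 fold change was weaker, at -2.81.

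Most CENPA loading and centromere genes were higher in testis, 10 of 15 tested, with 2 lower (median log2 2.29). HJURP, the chaperone of CENPA, had 79.9 ± 14.4 CPM in testis and 1.34 ± 0.80 CPM in epididymis, a log2 fold change of 5.90 ± 0.46 (SE, edgeR adjusted p = 4.8e-07). MIS18A, of the complex that licenses loading, had 38.7 ± 13.3 and 3.28 ± 0.99 CPM. MEIKIN, a meiotic kinetochore protein, had 7.35 ± 1.59 and 0.111 ± 0.0475 CPM. Cell division genes were higher in testis for 13 of 18 tested, and the other 5 were not called (median log2 1.28). The mitotic kinase PLK1 had 390 ± 68.4 CPM in testis and 6.61 ± 3.10 CPM in epididymis, and MCM7, of the replication helicase, 191 ± 31.2 and 90.7 ± 19.0 CPM. From testis replicate 4 alone the log2 fold change of MCM7 was 0.76, against 1.11 over all libraries.

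**Figure D4:**
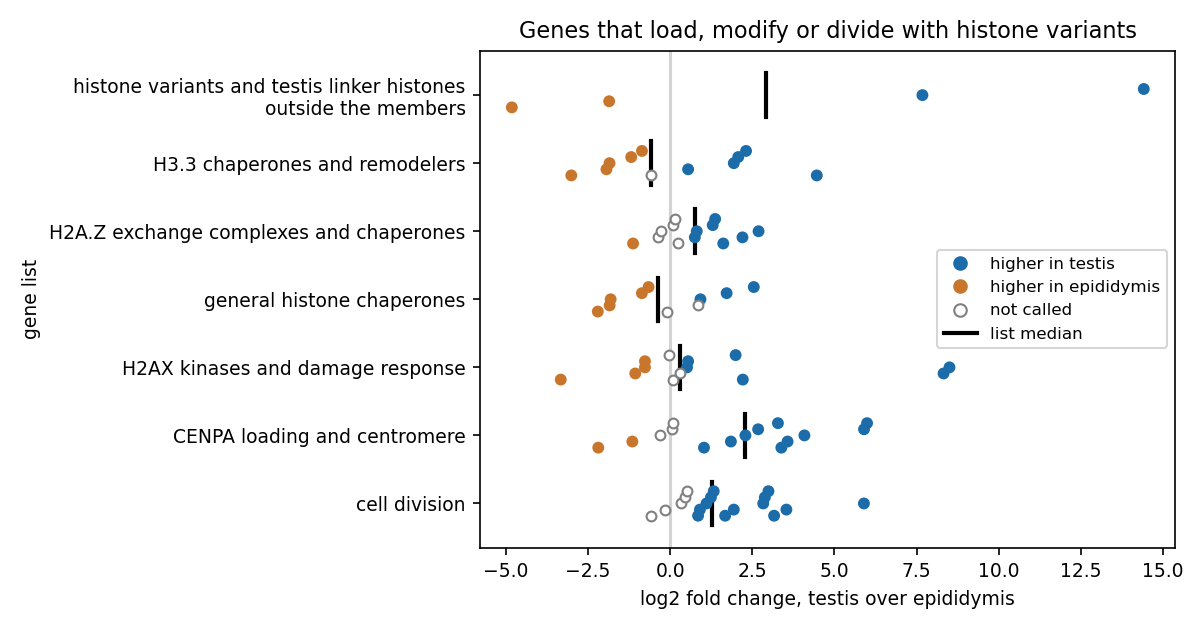
Log2 fold change, testis over epididymis, of every tested gene in 7 lists, coloured blue where called towards testis, orange where called towards epididymis and not called in white, and the list median as a black line. The centromere list has its median at 2.29 and the general chaperones at -0.37, where all genes tested have -0.07.

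The genes most like each variant were taken by the root mean square distance of log2 CPM over the 10 libraries, each gene centred on its own mean. Testis replicate 4 is among these libraries, so a likeness there is part of the choice and no separate result. Nearest to H2AX were EXOG, a mitochondrial nuclease gene, at 0.48, and the spliceosomal RNA row U2 at 0.63. EXOG had 0.641 CPM in testis replicate 4, against 12.0 to 14.9 CPM in the other testis libraries, with 0.548 to 1.14 CPM in epididymis. U2 had 0.374, 7.17 to 8.97 and 0.501 to 1.19 CPM in the same order. For MACROH2A1 they were RPS9, a ribosomal protein gene, at 0.10, and KCTD7 at 0.11, and for MACROH2A2 CERCAM at 0.14 and POP7 at 0.24. HIGD1A (0.18) and HNRNPM (0.19) were nearest to H2AZ2. HNRNPM, a splicing factor, had 300.3 CPM in testis replicate 4, against 67.6 to 77.9 CPM in the other testis libraries, with 214 to 445 CPM in epididymis. For CENPA they were CDC25B, a phosphatase that starts mitosis, at 0.19 and DISP3 at 0.28. For H2AFZ they were GOLGA1 at 0.17 and TFAM at 0.18, and for H3F3A the translation factor gene EIF3H and ZNF514, each at a distance of 0.11 to 0.12.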

How the data were processed

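The labels' protocols name TRIzol for extraction, oligo(dT) for poly(A) enrichment and a SMARTer kit for cDNA. Per the submitters' processing notes, cutadapt 3.0, STAR and featureCounts of Subread were used with Sscrofa11.1. Not given in the sources used here: annotation, strand setting and the treatment of multi-mapped reads. The authors deposited raw counts of reads per gene beside each gene's length in bases, per the file headers. Coordinates and the names H2AFZ, H3F3A and H2AFY come from a RefSeq table of Sscrofa11.1. Of 15226 rows named by an identifier, 822 matched a symbol.

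Counts were tested with R 4.3.3 and edgeR 4.0.16 (filterByExpr, TMM factors, robust quasi-likelihood test, tissue as the only term, Benjamini-Hochberg adjustment over 17225 genes). Standard errors are approximate, the unshrunken log2 fold change over the root of F. No 2 libraries were identical (chi-square per degree of freedom within a tissue at least 9.53). The pairing of tissues rests on the animal numbers in the file headers, and the deviations of a boar's libraries from their tissue means correlated across genes at 0.0064 to 0.079. P-values measure the spread between 5 libraries per tissue. Ratios of reads had 1 read added. The code was tested on simulated data. The variants and gene lists were chosen with earlier results of these data known. Named were all variants, the 2 most abundant genes of each list, its extremes among called genes and the 2 nearest genes per variant; some genes that this rule names are not reported here. HIRA, ATM, ATR and PRKDC, and the single replication-dependent histone rows, were named after their values were seen. DESeq2 1.42.0, other scalings, no filter, a boar block and left-out libraries were tried.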

Additional observations from a re-analysis of the deposited data

Results flagged for a closer look

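In 4 of the 18 groups of 5 values looked at, 1 library lay far from the others of its tissue by Dixon's test, where chance flags about 1 in 20 groups. All 4 are levels of testis replicate 4, so the groups are not independent and that rate is no yardstick for their number. Over all genes, chi-square per degree of freedom was 152 to 198 in its pairs with the other testis libraries, against 9.53 to 26.6 among those. Of all genes tested, 19.9% lay at least 1 log2 unit away in that library. H2AX had 19.4 CPM there, against 366 to 496 CPM in the other testis libraries. H2AZ2 had 109.9 CPM, against 26.2 to 30.3 CPM. H2AFZ had 256 CPM, against 90.2 to 102 CPM, and H3F3A 127 CPM, against 54.7 to 66.9 CPM.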

How the results depend on the processing

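From testis replicate 4 alone against the epididymis, H2AX changed direction (log2 -0.39), H2AZ2 (-0.44), H3F3A (-0.67) and MACROH2A2 (-1.01) lost their calls, edgeR called 0 variants higher in testis and 1 in epididymis, 31 companion genes were called higher in testis, against 46, and 3 in epididymis, against 19, and of all genes 4421, against 6308, and 2145, against 6506. This comparison assumes that the lone testis library varies like those of the epididymis. The cause was not tested. The replicate block on the boar ended the calls of MACROH2A2 (-0.84), H2AFZ (0.64) and the ratio of H2AFZ over H2AZ2 (2.68, exact permutation within boars, adjusted p = 0.125, where 5 boars allow no call) and no other variant's. DESeq2 and its size factors each called 2 variants higher in testis, CENPA (0.99 and 0.98) besides H2AX, as did leaving out epididymis replicate 1. Of all genes, these settings called 8826 of 27584, 6661 of 17225 and 6584 of 17858 towards testis, in that order. Without epididymis replicates 3 and 4, H2AFZ was not called (0.70, edgeR adjusted p = 0.0813). The ratio MACROH2A1 over MACROH2A2 was called there (-1.0), but replicate 3 held the only epididymis ratio below the testis ratios, so its removal fixes that outcome.

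Leaving out single libraries gave 1 to 2 variants called higher in testis and 2 to 3 in epididymis, log2 -1.22 to -0.64 for MACROH2A2, 0.37 to 0.90 for H2AFZ, 0.64 to 1.21 for CENPA (edgeR adjusted p = 0.0127 to 0.145) and -1.12 to -0.57 for the macroH2A ratio. Of 17514 to 18013 genes tested, these fits called 6124 to 6980 towards testis and 6094 to 6883 towards epididymis. The size factors of DESeq2 moved the median log2 of all genes to 0.05, against -0.07. CENPA has the fewest reads (10 to 80), but its epididymis libraries differ by more than counting error. The ratio of H3-3A over H3-3B was planned and not run, since H3-3B had no row of that name.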
